A study of Homo sapiens with 23 samples.

Results

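The protein-coding genes described here each hold a complete SVA retrotransposon from the study's list of SVAs that lacked H3K9me3 in induced pluripotent stem cells and are therefore called de-repressed. Members were chosen by position and expression: the gene body, from start to end, had to contain the whole SVA interval on chromosomes 1 to 22 or X, and the gene needed an estimated count of 10 or more in all 6 RNA-seq libraries. Of 20098 protein-coding genes on these chromosomes, 231 held such an SVA and 191 of these met the count minimum. The 191 host genes held 225 of the 619 de-repressed SVA intervals on these chromosomes, out of 751 in the list.

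All cells were NCCITs, a human embryonal carcinoma line. SCi-NCCITs carry a doxycycline-inducible dCas9-KRAB and 2 constitutively expressed sgRNAs aimed at SVAs, in stably selected clones of dCas9-KRAB cells. Treated cells received 2 µg/mL doxycycline for 72 hours, and control SCi-NCCITs carried the same constructs and received none. RNA-seq comprised 3 libraries per condition, H3K9me3 and YY1 ChIP-seq 2 per condition and OCT4 ChIP-seq 1 per condition, with 1 further H3K9me3 library of NCCITs that lack dCas9-KRAB. None of these samples received doxycycline without sgRNAs and dCas9-KRAB, so the effects of the drug and of targeting cannot be told apart, and the sgRNAs also match LTR5Hs elements elsewhere in the genome.

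SVAs are composite retrotransposons, named for their SINE-R, VNTR and Alu-like parts, and begin with repeats of the hexamer CCCTCT. KRAB domains recruit KAP1 and histone methyltransferases that deposit H3K9me3, a mark of repressed chromatin. YY1 is a zinc finger factor that binds promoters and enhancers, and OCT4, encoded by POU5F1, is a core factor of pluripotent cells. An SVA in an intron is transcribed through by its host gene, so its chromatin lies within a transcription unit.

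The libraries held 15305909 to 49878613 estimated counts. Replicate 1 without doxycycline was the shallowest. ZNF10, whose KRAB domain is used in dCas9-KRAB fusions, was at 10.0 to 11.8 CPM (read counts scaled to library size, not to gene length) without doxycycline and at 362 to 459 CPM with it. All 12 pluripotency markers were above a mean of 1 CPM, while 4 of 5 endoderm, 3 of 5 mesoderm and 4 of 5 ectoderm markers were under it. The endoderm markers summed to 1.18 to 1.89 CPM without and 2.99 to 3.77 CPM with doxycycline, with no overlap, and the mesoderm markers to 126 to 172 and 139 to 155 CPM. The ectoderm markers summed to 2.92 to 4.24 and 3.17 to 3.47 CPM. All 5 fibroblast markers were above it, with a summed level of 226 to 301 CPM without and 238 to 298 CPM with doxycycline. The pluripotency markers summed to 3631 to 3979 CPM without and 2911 to 3185 CPM with doxycycline, and the part of this shift and of that in the endoderm markers in the results below was not tested. In bulk RNA, fewer cells of a type and less RNA per cell cannot be told apart. The labels do not say that replicates came from separate cultures, so p-values measure the spread between these libraries.

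Letters shared by the YY1 and OCT4 summits in the hosted SVAs are described first, because the pair of genes with the largest falls in RNA held SVAs bound by both factors. SVA sequence was read from GRCh37 (hg19), the build of the peak lists. ATGGCGG is the core of the known YY1 motif, and CTTTGTT contains the CTTTGT core bound by SOX factors, the partners of OCT4. Both motifs were taken from stretches shared by the summit windows and so were chosen after the data were seen. Searched on both strands, ATGGCGG was in 23 of the 26 hosted SVAs with a YY1 peak in both libraries without doxycycline, in 92 of 185 with a peak in neither and in 332 of all 619 SVAs (53.6%). It lay within 60 bases of 13 of 36 YY1 summits in replicate 1 and 16 of 30 in replicate 2. CTTTGTT was in 26 of the 30 hosted SVAs with an OCT4 peak without doxycycline, in 114 of the 195 without one and in 383 of all 619 (61.9%), and it lay within 60 bases of 15 of the 30 OCT4 summits. It was also in 26 of the 26 hosted SVAs with YY1 in both libraries and in 102 of the 185 with YY1 in neither. The consensus GCCATNTT was in 9 of the 619 SVAs and the octamer ATGCNAAT in 0 of them. Interval length differs between these groups. Of the 49 hosted SVAs under 200 bp, 0 had YY1 in both libraries without doxycycline and 4 had OCT4. The motif counts were not adjusted for length. These letters describe the sequences and were not tested as binding sites.

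The hosted SVAs lay mostly in introns and belonged mostly to the SVA-D, SVA-F and SVA-E subfamilies. SVA-D contributed 80 of the 225 (35.6%), SVA-F 73 (32.4%), SVA-E 39 (17.3%), SVA-B 17, SVA-C 9 and SVA-A 7. Among the 360 SVAs that were not wholly inside a protein-coding gene, SVA-D made up 28.3%, SVA-F 28.3%, SVA-E 14.2% and SVA-B 15.3%. The median length was 616 bp in the hosted SVAs and 647.5 bp in the others, and 49 of the hosted intervals were under 200 bp. Adjacent intervals can be fragments of a single insertion, as in ARHGAP19, where 5 SVA-F intervals followed each other within the first intron, so intervals are not independent of each other.

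A host gene and a hosted SVA formed 240 pairs, since 15 SVAs lay in 2 overlapping member genes. Relative to the representative transcript of each gene, 48 pairs were in the first intron, 153 in a later intron and 7 on an exon, and 32 lay outside that transcript but within the body that other transcripts define. The intronic pairs were 867 bp (DERA) to 1430624 bp (MACROD2) from the transcription start site (TSS), with a median of 26874 bp. By the CCCTCT hexamer, 145 pairs were antisense to the gene, 55 were sense and 40 could not be oriented. The hexamer gave the same direction as the poly-A end for 359 of the 360 SVAs with both features. Of the 191 genes, 154 held 1 SVA, 29 held 2 and 8 held 3 or more.

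H3K9me3 was found at more hosted SVAs with doxycycline than without it. In the libraries without doxycycline, 88 of the 225 hosted SVAs (39.1%, 95% Wilson interval 33.0 to 45.6%) overlapped H3K9me3 in replicate 1, and 20 (8.89%, 5.83 to 13.3%) did so in replicate 2. With doxycycline, 139 (61.8%, 55.3 to 67.9%) and 117 (52.0%, 45.5 to 58.4%) had one. Intervals cover counting error over SVAs only, and the read depth behind the peaks is unknown. Both libraries with doxycycline lay above both without. The mean rose from 54.0 ± 48.1 to 128 ± 15.6 SVAs (SD, n = 2 libraries per group), a difference of 74 (p = 0.333 in an exact two-sided permutation test, and 2 against 2 libraries cannot give a smaller value). Replicate 1 without doxycycline stood apart from replicate 2, and the difference was 51 within replicate 1 and 97 within replicate 2. NCCITs without dCas9-KRAB had a peak at 3 hosted SVAs, in BMT2, CFAP92 and HTT, which were named after their values were seen.

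**Figure D1:**
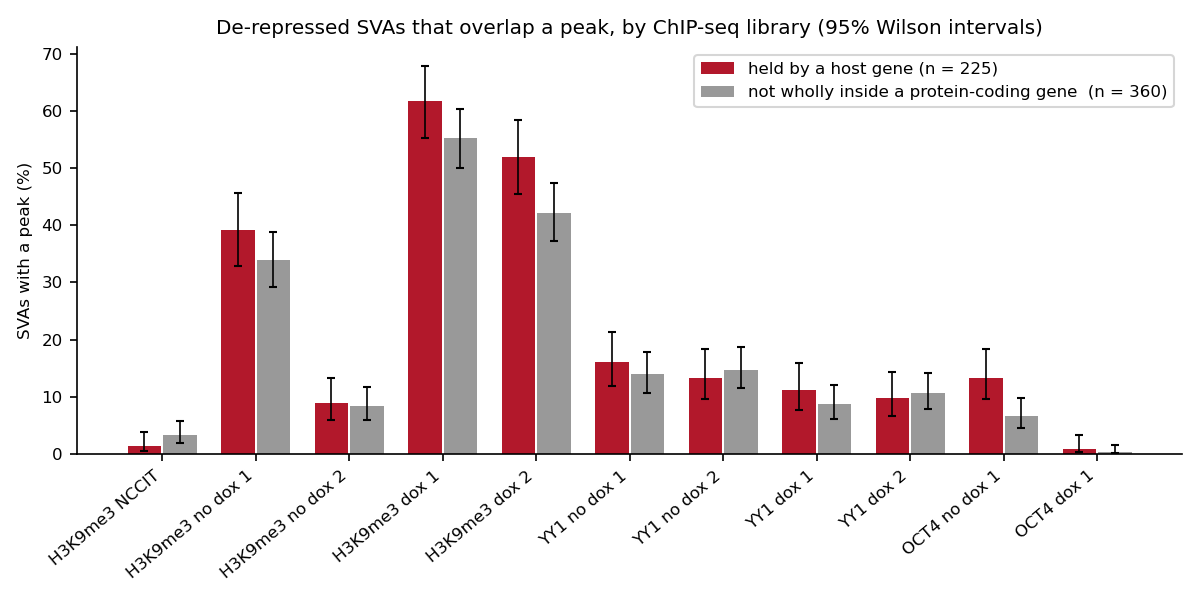
Share of SVAs that overlap a peak (y axis, %) in each ChIP-seq library (x axis), for the 225 SVAs held by host genes (red) and the 360 SVAs not wholly inside a protein-coding gene (grey), with 95% Wilson intervals as bars. H3K9me3 covered 61.8% and 52.0% of hosted SVAs with doxycycline, and OCT4 13.3% without and 0.889% with doxycycline.

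An SVA was said to gain H3K9me3 when both libraries with doxycycline, and neither of those without, had a peak there. This was so for 52 hosted SVAs (23.1%, 18.1 to 29.0%), in 51 genes. A further 58 were marked in both treated libraries but also in at least 1 without doxycycline. The strict gain rested on replicate 1 without doxycycline: by replicate 2 alone 98 hosted SVAs gained the mark and by replicate 1 alone 57. Among hosted SVA-Ds, 56 of 80 (70.0%) were marked in both libraries with doxycycline, against 22 of 73 SVA-Fs (30.1%) and 8 of 39 SVA-Es (20.5%). For SVA-B this was 14 of 17 and for SVA-C 7 of 9. At 73 hosted SVAs no SCi-NCCIT library had an H3K9me3 peak. Peaks rest on uniquely mapped reads, and an absent peak cannot be told apart from too few such reads. Whether subfamilies differ in this was not tested. Of the hosted intervals under 200 bp, 22.4% were marked in both, against 56.2% of those of 200 bp or more.

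YY1 and OCT4 peaks were fewer at hosted SVAs with doxycycline. YY1 had a peak at 36 and 30 hosted SVAs without doxycycline and at 25 and 22 with it, so that the groups did not overlap. The mean fell by 9.5, from 33.0 ± 4.24 to 23.5 ± 2.12 (SD, n = 2 libraries per group, two-sided exact permutation test, p = 0.333). The YY1 libraries with doxycycline held more peaks over the genome, 82005 and 115673 against 56370 and 76098. Of the 26 SVAs with YY1 in both libraries without doxycycline, 12 had it in neither with doxycycline, 4 in 1 library and 10 in both. In the other direction, 4 SVAs carried YY1 in both treated libraries but in no control library, and they lay in MKS1, MRS2, PARD3 and the overlapping genes ANKAR and OSGEPL1, named after their values were seen.

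OCT4 had a peak at 30 hosted SVAs (13.3%, 9.50 to 18.4%) without doxycycline and at 2 (0.889%, 0.244 to 3.18%) with it, in DERA and MSH6, both also bound without it. With 1 library per condition there is no replicate error, and the list with doxycycline held 23352 peaks against 50775. With the same number of peaks kept in each, 11 hosted SVAs had OCT4 without doxycycline and 2 with it. The 225 hosted SVAs included 17 with both OCT4 and YY1 in both libraries without doxycycline. Of the 52 SVAs that gained H3K9me3, 16 had been bound by YY1 and 20 by OCT4, against 10 each of the 173 that did not gain it.

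Peaks were also counted at the promoters. Within 1000 bp of the TSS of the 191 host genes, YY1 had a peak at 155 and 151 without doxycycline and at 160 and 162 with it, while H3K9me3 had one at 4 and 3 without and 5 and 7 with it. OCT4 had a peak at 84 of these TSSs without doxycycline and at 10 with it. By the rule for a gain, 4 genes acquired H3K9me3 within 1000 bp of the TSS, namely DERA, NUBPL, RMND1 and KRBA2. A shared base with this window was enough. In DERA the treated peaks nearest to the TSS began 40 and 70 bp past the SVA centre, read along the gene, and did not reach the TSS. The SVA nearest to the TSS was 867 bp away in DERA, 1514 bp in NUBPL, 1702 bp in RMND1 and 8806 bp in KRBA2. RNA was called lower in DERA, RMND1 and KRBA2, and NUBPL was at -0.24 on the log2 scale (edgeR, adjusted p = 0.111).

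**Figure D2:**
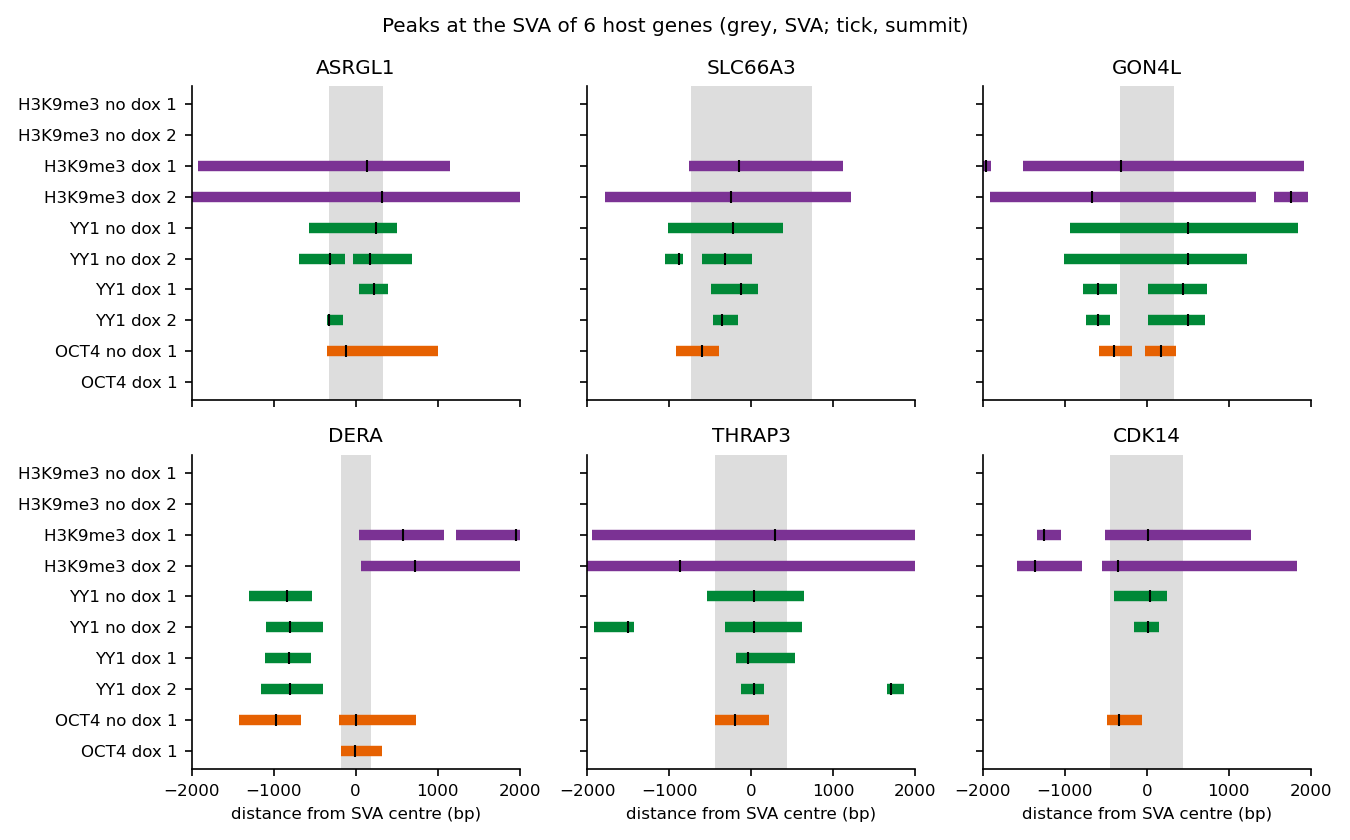
Peaks at the SVA of 6 host genes, with the distance from the SVA centre in bp on the x axis, read along the gene, and 1 row per SCi-NCCIT library on the y axis. Bars are H3K9me3 (purple), YY1 (green) and OCT4 (orange) peaks, ticks are summits and grey marks the SVA. The 6 are examples that met the rule for a gain and were bound by YY1 or OCT4 without doxycycline. Their H3K9me3 pattern, with peaks in both treated libraries and in neither control library, is therefore given by that rule. It was met by 52 of the 225 hosted SVAs.

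RNA of host genes was more often lower with doxycycline. Of the 191, 53 were called at an adjusted p under 0.05 (27.7%), where 17.5% of all 16371 genes tested were called. The calls were 41 lower (21.5%, where 8.48% of all genes were called lower) and 12 higher (where 8.97% of all genes were called higher). Host genes had to meet the count minimum, and their median level was 41.6 CPM against 19.9 CPM over all genes tested. The part of this difference in the shares called was not tested. The median log2 fold change of host genes was -0.11 and 131 of them (68.6%) were below 0, against a median of -0.0025 and 50.4% below 0 over all genes. The 3 libraries of each condition did not overlap in 69 host genes in the lower direction, where 17.8% of all genes did not, and in 25 in the higher direction, where 19.2% did not. Leaving out replicate 2 without doxycycline left 31 called, 26 lower and 5 higher, and leaving out replicate 3 left 35. With a minimum size of 0.5 on the log2 scale in either direction, 22 lower and 1 higher call were left.

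**Figure D3:**
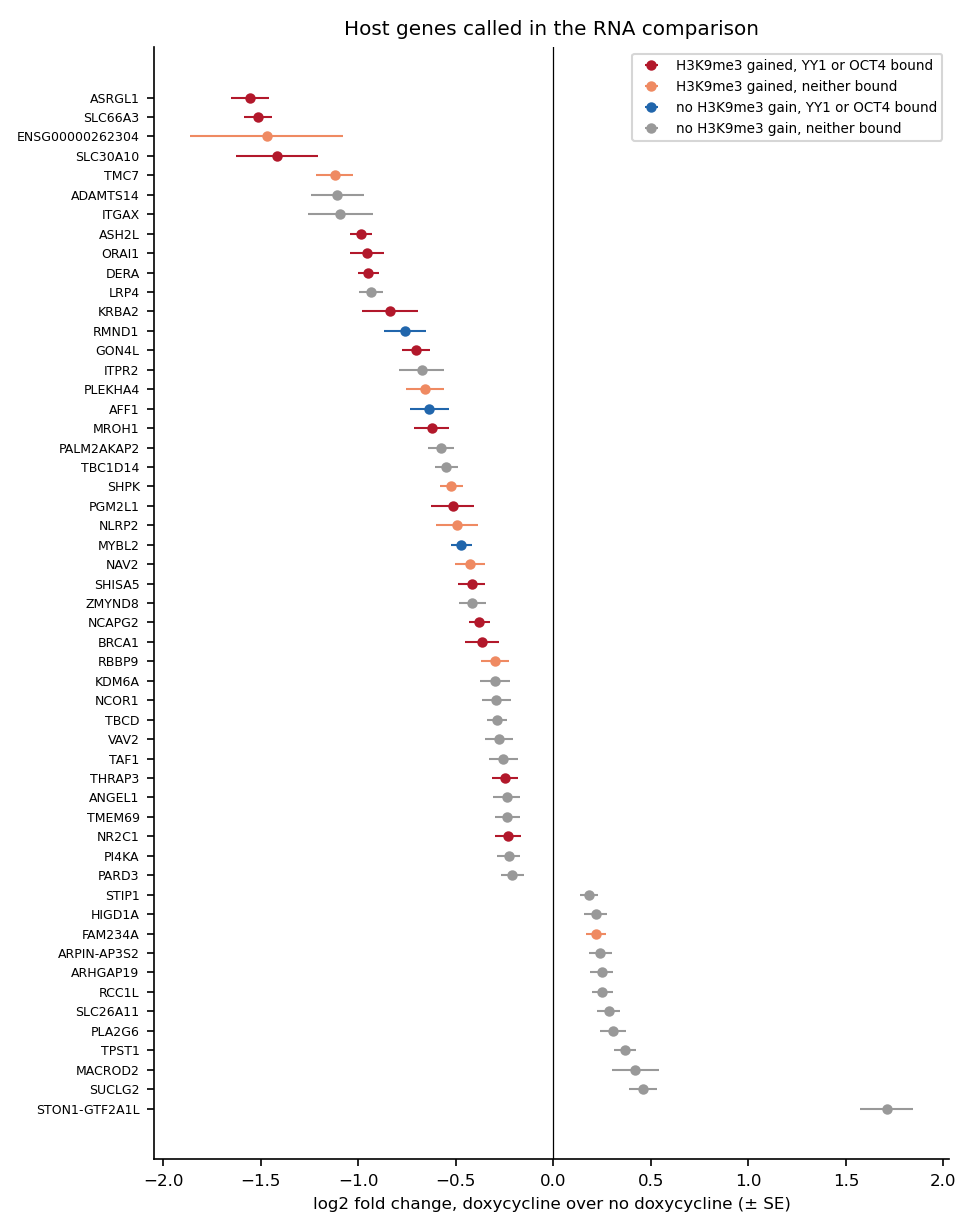
Log2 fold change with doxycycline over no doxycycline (x axis, with SE as bars) of the 53 host genes called, sorted by size on the y axis and coloured by the state of their SVAs. The 41 falls reach -1.56 (ASRGL1), and the rises, apart from STON1-GTF2A1L (1.71), stay at or under 0.46.

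The falls were largest in ASRGL1 and SLC66A3. ASRGL1 encodes an asparaginase that also cleaves isoaspartyl dipeptides, and its SVA-D of 660 bp (chr11:62123095-62123754, hg19) lies antisense in intron 2 of 6, 18504 bp from the TSS. Its RNA was at 255, 226 and 208 CPM without doxycycline and at 87.5, 72.6 and 73.5 CPM with it. The groups were far apart, and the log2 fold change was -1.56 ± 0.09 (SE, edgeR, adjusted p = 1.25e-05). SLC66A3 encodes a PQ-loop membrane protein of the family of lysosomal amino acid exporters and holds an SVA-C of 1474 bp (chr2:11304662-11306135) antisense in intron 4 of 6. It was at 124, 126 and 113 CPM without and 44.8, 43.6 and 38.6 CPM with doxycycline. The log2 fold change was -1.52 ± 0.07 (adjusted p = 2.14e-06). Both SVAs gained H3K9me3, still overlapped a YY1 peak in both treated libraries and lost OCT4. At the SVA of ASRGL1 the fold enrichment of the strongest YY1 peak was 10.2 and 9.21 without doxycycline and 5.23 and 3.76 with it. These are not all 1 site. The summit in treated replicate 2 was at -330 bp from the SVA centre, and those of the other libraries were at 172 to 242 bp. H3K9me3 reached 11.8 and 14.6 with doxycycline.

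ASH2L and ORAI1 also held SVAs bound by both factors. ASH2L, a core subunit of the complexes that methylate H3K4, holds an SVA-C in the sense direction in intron 13 of 15. It was at 240, 236 and 220 CPM without and 121, 116 and 114 CPM with doxycycline, a log2 fold change of -0.99 ± 0.06 (adjusted p = 7.90e-06). Its SVA gained H3K9me3, and both YY1 and OCT4 peaks were absent with doxycycline. ORAI1, the pore subunit of the store-operated calcium channel, was at 85.9, 66.7 and 76.7 CPM without and 41.3, 38.5 and 37.8 CPM with doxycycline, with -0.96 ± 0.09 (adjusted p = 0.000136). Its 2 SVA-D intervals lie in the last intron, and only the shorter, of 24 bp, met the rule for a gain, since the longer had a peak in replicate 1 without doxycycline. In both genes the lowest library without doxycycline was above the highest with it.

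The other genes of this kind fell by less. GON4L, a nuclear regulator of transcription, was at 212, 233 and 202 CPM without and 130, 124 and 143 CPM with doxycycline (-0.70 ± 0.07, adjusted p = 0.000317), and its SVA had the highest YY1 enrichment of those named, 20.3 and 22.6 without doxycycline and 7.45 in replicate 1 with it. RMND1, which is needed for mitochondrial translation, was at 24.7, 33.1 and 33.4 CPM without and 17.7, 19.2 and 17.6 CPM with doxycycline (-0.76 ± 0.11, adjusted p = 0.00193). AFF1, a scaffold of the super elongation complex, was at 119, 156 and 145 CPM without and 89.9, 83.4 and 97.6 CPM with doxycycline (-0.64 ± 0.10, adjusted p = 0.00294). The groups did not overlap in these 3 genes. NCAPG2, a subunit of condensin II, was at 119, 118 and 114 CPM without and 87.0, 88.1 and 94.2 CPM with doxycycline (-0.38 ± 0.05, adjusted p = 0.00189). CDK14, a cyclin-dependent kinase of Wnt signalling, was at 17.1, 21.8 and 20.5 CPM without and 19.1, 19.4 and 21.1 CPM with doxycycline, a log2 fold change of -0.01 ± 0.09 (adjusted p = 0.973), although its SVA gained H3K9me3 and lost YY1 and OCT4. It was named after its values were seen, and its SVA lies 148136 bp from the TSS.

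DERA is the gene whose SVA is nearest to the TSS among the intronic pairs. DERA encodes deoxyribose-phosphate aldolase, and its RNA was at 96.5, 88.7 and 93.0 CPM without and 47.9, 48.0 and 48.1 CPM with doxycycline. The 3 treated libraries were nearly equal, and the log2 fold change was -0.95 ± 0.05 (adjusted p = 6.17e-06). LRP4, a co-receptor for agrin and a modulator of Wnt signalling, was at 162, 164 and 149 CPM without and 84.4, 79.0 and 84.8 CPM with doxycycline (-0.94 ± 0.06, adjusted p = 1.64e-05). The SVA-D of LRP4, sense in intron 7 of 37, had H3K9me3 in replicate 1 without doxycycline and in both libraries with it, with no YY1 or OCT4 peak in any library. TMC7, a transmembrane channel-like protein, was at 18.8, 24.0 and 21.9 CPM without and 10.2, 9.38 and 10.4 CPM with doxycycline (-1.12 ± 0.10, adjusted p = 9.81e-05). Its SVA-F in intron 1 gained H3K9me3.

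Another 5 host genes, all under 6 CPM, were also among the 12 largest falls. SLC30A10, a manganese exporter, had a mean of 1.70 ± 0.21 CPM without and 0.628 ± 0.0906 CPM with doxycycline (SD, n = 3). ADAMTS14, a procollagen N-propeptidase, had 4.96 ± 0.28 and 2.30 ± 0.29 CPM, and ITGAX, the integrin alpha X chain of myeloid cells, 3.39 ± 0.43 and 1.59 ± 0.23 CPM. KRBA2 had 4.37 ± 0.54 and 2.44 ± 0.23 CPM. Their log2 fold changes were -1.42, -1.11, -1.09 and -0.84, all called. ENSG00000262304, an unnamed gene on chromosome 17, was at 1.98, 1.55 and 1.42 CPM without and 0.289, 0.440 and 0.999 CPM with doxycycline (-1.47 ± 0.39, adjusted p = 0.0313). Its call was lost in 5 of the 6 fits that left out a library, with adjusted p from 0.0564 to 0.120 in those. SHPK, a member called lower (-0.52 ± 0.06), has an SVA-D of the same 574 bp, also 2256 bp from the TSS on chromosome 17. This can be 1 SVA counted under 2 overlapping genes, so their calls cannot be taken as independent. How estimated counts were split between these 2 genes was not tested.

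**Figure D4:**
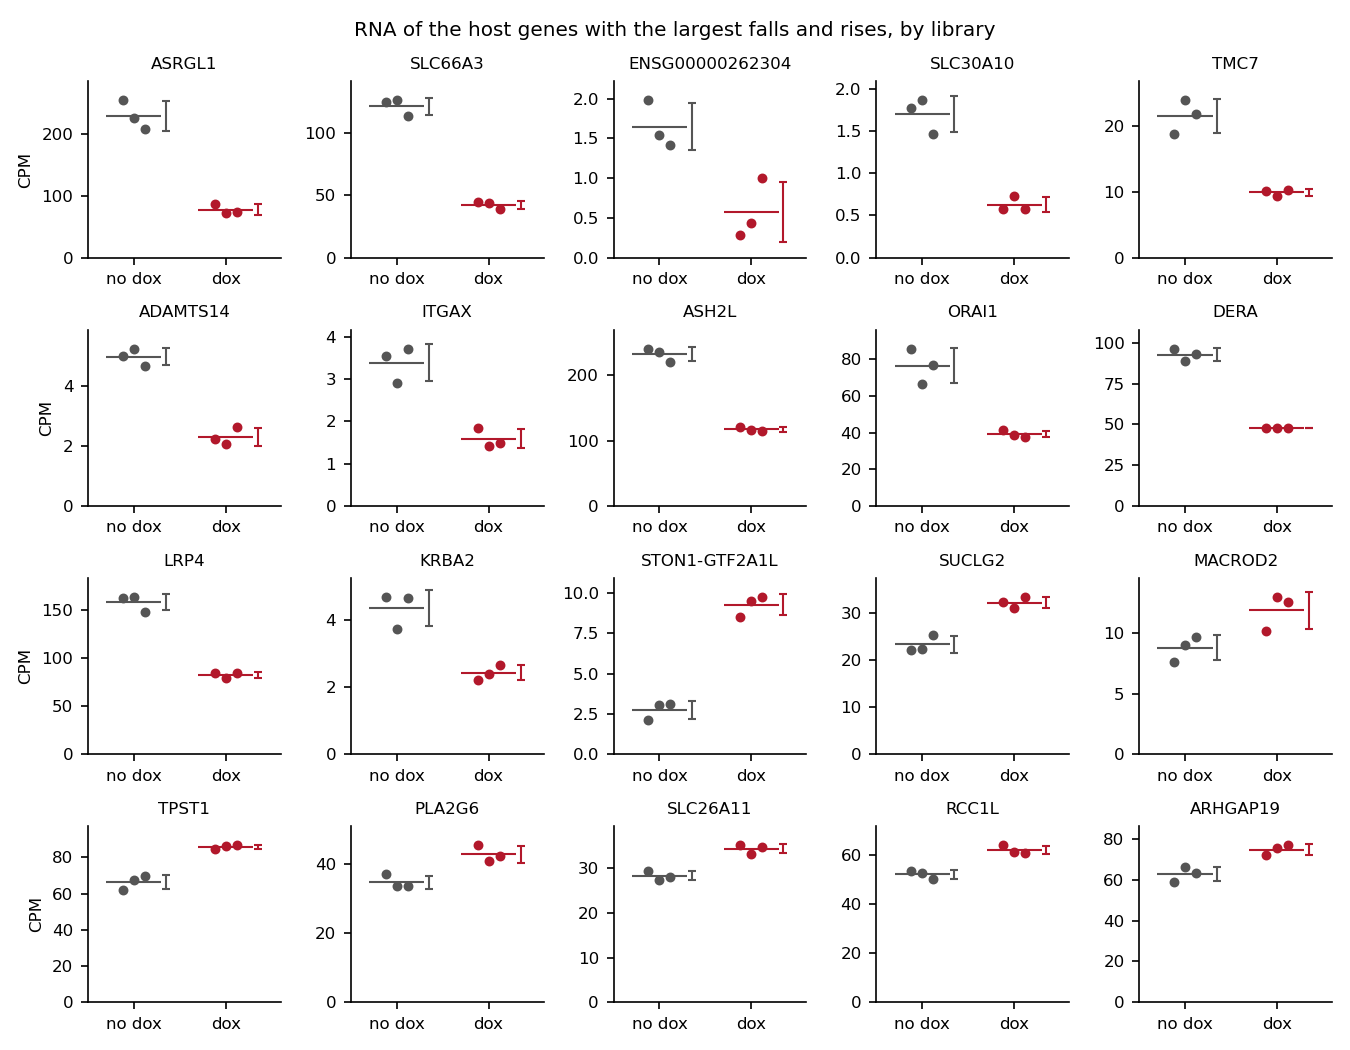
CPM (y axis, from 0) of the 12 host genes with the largest falls and the 8 with the largest rises, in the 3 libraries without (grey) and the 3 with (red) doxycycline. Points are libraries, lines are means and bars beside them are SD, and in all 20 genes the groups do not overlap.

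The rises were fewer and smaller. STON1-GTF2A1L, a readthrough gene whose transcripts share exons with STON1 and GTF2A1L, was at 2.11, 3.03 and 3.09 CPM without and 8.53, 9.53 and 9.76 CPM with doxycycline (1.71 ± 0.14, adjusted p = 6.19e-05). Reads shared with its parts make this value uncertain, and STON1 itself was at 0.10 ± 0.10 on the log2 scale (adjusted p = 0.517). SUCLG2, the GTP-forming beta subunit of succinyl-CoA synthetase, was at 22.1, 22.4 and 25.4 CPM without and 32.3, 30.9 and 33.4 CPM with doxycycline (0.46 ± 0.07, adjusted p = 0.00333). TPST1, a tyrosylprotein sulfotransferase, was at 61.8, 67.4 and 69.6 CPM without and 84.5, 85.9 and 86.6 CPM with it (0.37 ± 0.06, adjusted p = 0.00309). MACROD2 (0.42), PLA2G6 (0.31), SLC26A11 (0.28), RCC1L (0.25) and ARHGAP19 (0.25) were also called higher, with adjusted p from 0.0125 to 0.0419. All 5 lost their call in at least 2 of the fits that left out a library. None of the SVAs of these 8 genes gained H3K9me3 by the strict rule or was bound by YY1 in both libraries or by OCT4 without doxycycline.

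Host genes were then grouped by the state of their SVAs. Of the 51 genes with an SVA that gained H3K9me3, 22 were called lower and 1 higher, with a median log2 fold change of -0.21. The 140 without a gain had 19 lower and 11 higher, with a median of -0.09. They include genes whose SVA was marked in both treated libraries and also in a control library. Of the 106 genes with an SVA marked in both treated libraries, 34 were lower and 3 higher (median -0.17). The other 85 genes had 7 lower and 9 higher (median -0.03). With gain read from replicate 2 alone, 32 of 94 genes were lower. A YY1 peak in both libraries without doxycycline marked 26 genes, of which 13 were lower and 0 higher (median -0.32). An OCT4 peak without doxycycline also marked 26 genes, of which 14 were lower and 0 higher (median -0.27), and 7 of 10 were lower when the OCT4 lists were cut to the same number of peaks. These shares stand beside the 8.48% of all genes called lower and were not tested against each other, and genes in 1 class can share an SVA. The classes also differ in RNA level, which affects how readily a change is called. The median was 56.4 CPM in the genes with YY1 and 67.2 CPM in those with OCT4, against 19.9 CPM over all genes tested. The shares were not adjusted for this.

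Gain and binding were read per gene and could lie at different SVAs, as in MRTFA. Both were present in 24 genes, of which 15 were lower, 0 were higher and 23 had a log2 fold change below 0 (median -0.37). They include ASRGL1, SLC66A3, SLC30A10, ASH2L, ORAI1, DERA, KRBA2, GON4L, NCAPG2 and THRAP3 among the falls, and CCT3, EIPR1, DTNB, RANBP17 and CDK14 among those not called. A gain without binding by YY1 or OCT4 was present in 27 genes, of which 7 were lower and 1 higher (median -0.12). Binding without a gain was found in 11 genes, of which 3 were lower and 0 higher (median -0.05), and the 3 were RMND1, AFF1 and MYBL2, each with an H3K9me3 peak in replicate 1 without doxycycline. The 129 genes with neither had 16 lower and 11 higher (median -0.09). Read from replicate 2 alone, 17 of 28 genes with gain and binding were lower.

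**Figure D5:**
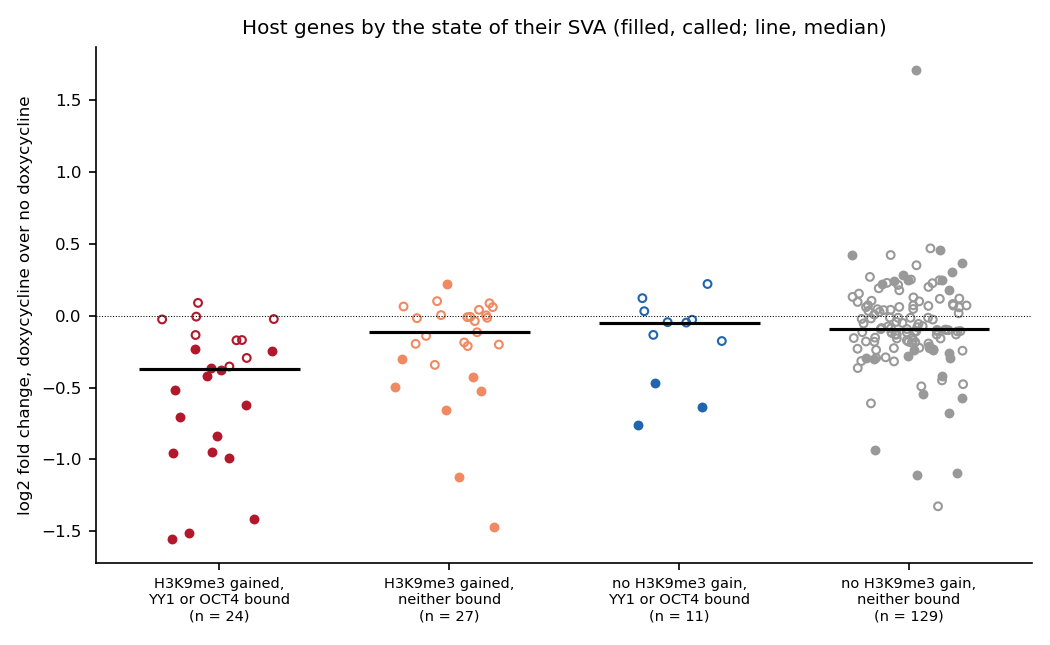
Log2 fold change with doxycycline over no doxycycline (y axis) of the 191 host genes, in 4 classes (x axis) by H3K9me3 gain and by YY1 or OCT4 binding without doxycycline at an SVA they hold. Filled points are called genes and lines are medians, which lie at -0.37, -0.12, -0.05 and -0.09 from left to right.

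Calls were also counted by subfamily, orientation and position. Subfamily and gain went together, since 29 of 80 hosted SVA-Ds gained H3K9me3, against 9 of 73 SVA-Fs and 3 of 39 SVA-Es. The part of unique mapping in this was not tested. Of 76 genes with an SVA-D, 24 were lower and 2 higher. Of 57 with an SVA-F, 9 were lower and 7 higher, and of 33 with an SVA-E, 3 were lower and 4 higher. The medians were -0.11, -0.13 and -0.04. Genes with only sense SVAs had 12 of 43 lower and 1 higher (median -0.17), and those with only antisense SVAs 22 of 106 lower and 6 higher (median -0.10). An SVA in the first intron was held by 33 genes, of which 7 were lower and 3 higher, and one in a later intron by 126, of which 28 were lower and 7 higher (medians -0.10 and -0.11). With the nearest SVA under 5000 bp from the TSS, 5 of 17 genes were lower and 0 higher, against 13 lower and 4 higher of 65 at 50000 bp or more. Among 35 genes whose longest SVA was under 200 bp, 5 were lower and 5 higher, and among the other 156, 36 were lower and 7 higher.

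Genes that held many SVAs were not among the largest falls. ARHGAP19, a GTPase-activating protein, and HIGD1A, a mitochondrial hypoxia-induced protein with 3 SVA-F intervals in its first intron, were called higher (0.25 ± 0.06 and 0.22 ± 0.06). HIGD1A lost its call with length-scaled counts (edgeR, adjusted p = 0.0617) and without treated replicate 2 (0.128) or 3 (0.0657). Leaving out any 1 control library also lost it (0.0655 to 0.0825). KIAA1958 (-0.23), IQGAP3 (-0.16), PIAS1 (-0.05), MRTFA (-0.02), ZNF665 (-0.03) and ACSL3 (0.06) did not pass the test, with adjusted p from 0.0978 to 0.918. The sign of ACSL3, MRTFA and ZNF665 changed under other settings. KIAA1958 passed with the replicate number as a block (adjusted p = 0.0351), without treated replicate 3 (0.0442) and without control replicate 1 (0.0321). At the intervals in ARHGAP19, HIGD1A, PIAS1 and ACSL3 no library had an H3K9me3, YY1 or OCT4 peak.

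In 5 genes the SVA shared bases with an exon of the representative transcript. KRBA2 fell (above), and TMEM69, with 117 bp of SVA-F in exon 3, was at 80.4, 81.6 and 79.3 CPM without and 66.4, 74.4 and 63.9 CPM with doxycycline (-0.24 ± 0.06, adjusted p = 0.0350). TMEM69 lost its call with length-scaled counts and in 5 of the 6 fits that left out a library. ABHD2 (-0.22), TF, which encodes transferrin (-0.01), and CCDC137 (0.03) did not pass. Over any transcript, 17 transcripts of 13 member genes had an exon over a hosted SVA, and 11 of these, from 9 genes, had enough counts to test. None was called (edgeR, where 0.661% of 66421 transcripts were), 3 had an unadjusted p under 0.05, and the lowest adjusted p was 0.177, for a TMEM69 transcript.

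Members were also grouped by known function, after their values were seen, so the counts describe these lists only and are no evidence of a theme. Over all genes tested, 8.48% were called lower and 8.97% higher. Of 19 chromatin and transcription genes, 10 were called lower and 0 higher. The 10 were ASH2L, GON4L, AFF1, MYBL2 (-0.47), a factor for cell cycle genes, ZMYND8 (-0.42), a reader of acetylated histones, KDM6A (-0.30), an H3K27 demethylase, NCOR1 (-0.29), a corepressor, TAF1 (-0.26), the largest subunit of TFIID, THRAP3 (-0.25) and NR2C1 (-0.23). KDM2A (-0.20), MGA (-0.32), SNW1, STAT5B and SMYD3 did not pass. Of 10 transporters and channels, 5 were lower (SLC66A3, SLC30A10, TMC7, ORAI1 and ITPR2, the inositol trisphosphate receptor, at -0.67) and SLC26A11 was higher. Of 13 mitochondrial genes, RMND1 was lower and HIGD1A, RCC1L and SUCLG2 were higher, though HIGD1A and RCC1L lost their call in some fits. Of 10 genes for DNA repair, replication and chromosomes, 2 were lower, NCAPG2 and BRCA1 (-0.36), a factor of homologous recombination.

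In the remaining functional groups no gene was called by edgeR. These were 6 C2H2 zinc finger genes, 14 genes of vesicle traffic, 10 of ubiquitin and SUMO pathways and 8 of the ribosome and RNA processing, with medians of -0.05, 0.04, -0.11 and -0.12. The members with the most counts were RPS3, a small-subunit ribosomal protein, CLIC4 and PARP1, on a CPM scale that is not corrected for length. RPS3 was at 1713 to 2056 CPM without and 1690 to 1985 CPM with doxycycline, and PARP1, a DNA damage sensor, at 726 to 803 and 726 to 755 CPM, both overlapping. CLIC4 was at 798, 914 and 933 CPM without and 708, 750 and 797 CPM with doxycycline, which did not overlap but missed the threshold (-0.23 ± 0.07, adjusted p = 0.0576). CLIC4, a chloride intracellular channel protein, passed with DESeq2 (adjusted p = 0.0136), with the replicate number as a block (0.0231) and without control replicate 1 (0.0142). RPS9, another small-subunit ribosomal protein, named after its values were seen, was at 384, 31.6 and 45.0 CPM without and 93.8, 87.8 and 111 CPM with doxycycline. Its log2 fold change of -0.61 ± 0.76 (adjusted p = 0.616) rested on control replicate 1, and the other control libraries lay below all 3 treated ones.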

How the data were processed

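Conditions were taken from the labels, and ChIP-seq libraries without a number were called replicate 1. For RNA-seq, the authors deposited estimated counts and TPM per transcript from kallisto. These were added up over the transcripts of each GENCODE v44lift37 gene and rounded, and conditions were compared in R 4.3.3 by edgeR 4.0.16 (filterByExpr, TMM, quasi-likelihood test, Benjamini-Hochberg adjustment over all genes, threshold 0.05). CPM are TMM-scaled. All 191 members passed the filter. Deposited TPM served only for length-scaled counts.

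For ChIP-seq, the authors used BWA and hg19, discarded duplicates and all reads whose mapping quality was not above 10, and called peaks in each library at a 5% FDR. The deposited lists give fold enrichment as a ratio and p- and q-values as −log10. Reads of repeats that map to several places do not count towards peaks. A shared base (1 bp) was enough for a peak to count as lying at an SVA. SVA positions came from the study's supplementary list. A HiChIP contact table was not used, since its 16 value columns could not be assigned to conditions.

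The representative transcript was MANE Select, Ensembl canonical or the longest. The genes named were called genes whose mean CPM was 1 or more (12 largest falls, 8 largest rises) and the 3 with the highest mean CPM. Also named were genes whose SVA had YY1 in both libraries and OCT4 without doxycycline, genes with 3 or more SVAs and genes with an SVA on an exon. At most 8 of each of these 3 kinds were taken, by the lowest p of the edgeR fit. Others are named as chosen after their values were seen or as group members. Members and lists were chosen with earlier results of these data known. Libraries of a condition differed by 7.29 to 14.6 times counting variance (chi-square per gene), so no library was a repeat deposit of another and each was counted once. On simulated data with 196 genes changed by 1 on the log2 scale, edgeR recovered 85.2% with 8.74% false calls. Overlaps used Python 3.11.15 with pandas 2.3.3, scipy 1.17.1 and pysam 0.24.0. DESeq2 1.42.0 and the other alternatives are given in the closing section. The sequences at the summits are not reported here.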

Additional observations from a re-analysis of the deposited data

How the results depend on the processing

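None of the 53 calls changed sign under DESeq2, its size factors, other filters, length-scaled counts, the replicate block or when a library was left out, and the median log2 fold change of host genes stayed within its spread between libraries. Of these 53, 52 were called by DESeq2, 39 with length-scaled counts and 31 without replicate 2 of the control. The fits without a library have fewer samples: they called 31 to 60 host genes, 26 to 48 lower and 4 to 12 higher, with a median of -0.13 to -0.09. Length-scaled counts called 7 higher and SVAs of at least 200 bp left 7 higher. A minimum size of 0.5 on the log2 scale left 23 called, 22 lower and 1 higher. The replicate numbers did not pair the libraries (correlations of deviations 0.13, 0.08 and -0.0009), and the replicate block called 67, 53 lower and 14 higher, a count within 1.5 times.

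Hosted SVAs that gained H3K9me3 were 57 to 98 by a single replicate. Hosted SVAs with YY1 without doxycycline were 10 when at least 50% of the SVA had to be covered and 40 with a peak in either replicate (30 to 36 by 1 replicate). Those with OCT4 were 17 at −log10 q of at least 5, 19 with 50% covered and 11 with equal peak numbers, where 7 of 10 host genes were lower. This last setting was added after seeing the data, as were other peak thresholds for the counts by YY1 and OCT4. The differences in SVAs with H3K9me3 (51 to 97) and YY1 (-11 to -8) kept their direction when a replicate was left out. The causes were not tested.

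Among the genes named by rule, for which each setting was recomputed, signs reversed in 6, all far from the threshold, and CLIC4, KIAA1958 and ABHD2 gained a call in 7 fits in all. A call was lost in 8 of these genes, 34 times in all over the fits. With length-scaled counts the log2 fold change was 0.069 in ZNF665, -0.037 in CCDC137 and 0.13 in TF. Over the fits that left out a library, it ranged from -0.017 to 0.12 in ACSL3, -0.074 to 0.011 in MRTFA, -0.15 to 0.11 in ZNF665, -0.037 to 0.14 in CCDC137, -0.044 to 0.018 in TF and -0.089 to 0.052 in RPS3. Depth limits genes near 1 CPM, OCT4 has no replicate, and short or repeated SVAs give few uniquely mapped reads.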

Other observations

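Of the 40 host genes that missed the count minimum, 9 passed the filter of the test, and 3 of these were called lower. ABCC2, a canalicular exporter of conjugated organic anions, was at 2.45, 2.30 and 1.74 CPM without and 0.200, 0.105 and 0.213 CPM with doxycycline (-3.61 ± 0.29, edgeR, adjusted p = 7.35e-05). ST6GALNAC1, a sialyltransferase, was at 0.886, 1.10 and 0.697 CPM without and 0.0889, 0.105 and 0.106 CPM with it (-3.11 ± 0.34, adjusted p = 0.000429), and TOX2, an HMG-box factor, was at -1.38 ± 0.35 (adjusted p = 0.0268). These genes are named after their values were seen, and the minimum in every library removes genes that are low in 1 condition.

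Protein-coding genes with a TSS within 50 kb of a de-repressed SVA that they do not hold numbered 443 among those tested. Of these, 59 were called lower (13.3%) and 39 higher, with a median log2 fold change of -0.03. Protein-coding genes tested that hold no de-repressed SVA numbered 14999, of which 1275 were lower (8.50%) and 1412 higher, with a median of 0.0011.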
